A study of Mus musculus with 40 samples.

Results

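*Reg3b*, *Reg3g* and *Reg1* are 3 of the 7 Reg family genes among the 15958 genes of the deposited table, and they were followed in all 40 libraries of the series. *Reg3b* and *Reg3g* were chosen because earlier results from these same duodenal libraries had put them lower under WUSTL0717, and *Reg1* was taken along as a relative that the pancreas also makes. Duodenal differences between groups are therefore given as a description, with no test for these 3 genes, whereas the ileum, the liver and the comparison of sham duodenum with sham ileum were tested. All mice were wild type C57BL/6 males, operated on at 8 weeks of age. The sham vehicle group had sham surgery and vehicle, the SBR vehicle group had small bowel resection (SBR, 50% to 60% of the small bowel by the labels, whereas the study's methods give a larger extent) and vehicle, and the SBR WUSTL0717 group had the same resection and daily WUSTL0717 at 30 mg/kg, a gut-restricted agonist of the liver X receptor (LXR). Treatment began 3 weeks after surgery and lasted 7 weeks. The duodenum and the ileum each had 3 sham vehicle, 4 SBR vehicle and 4 SBR WUSTL0717 libraries, and the liver had 5, 8 and 5. There was no sham group given WUSTL0717, and the labels do not say which intestinal libraries came from the same mouse.

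Reg proteins are small secreted lectins with a C-type lectin fold. REG3G, made by enterocytes and Paneth cells, binds peptidoglycan and kills Gram-positive bacteria, which keeps bacteria away from the epithelial surface, and REG3B acts mainly on Gram-negative bacteria. Microbial signals through MYD88 and the cytokine IL-22, acting through STAT3, induce both genes in the gut epithelium. REG1, also called lithostathine, is secreted by pancreatic acinar cells and by the epithelium of the upper small intestine, and REG2 is best known as its pancreatic relative.

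In the GRCm38 annotation (GENCODE M21), 6 Reg genes lie within 98.2 kb of chromosome 6. *Reg3b* (ENSMUSG00000071356) is on the plus strand at chr6:78370657-78373466, *Reg1* (ENSMUSG00000059654) on the plus strand at chr6:78422711-78428667 and *Reg3g* (ENSMUSG00000030017) on the minus strand at the far end, chr6:78466269-78468872. *Reg3d*, *Reg3a* and *Reg2* stand between *Reg3b* and *Reg1*, and *Reg4* is on chromosome 3. The transcripts of *Reg3b* and *Reg3g* were identical at 74.7% of aligned bases with a longest shared run of 35 bases, and those of *Reg1* and *Reg2* at 80.4% with a longest shared run of 19 bases. Those of *Reg3b* and *Reg3a* were identical at 73.7% with a longest shared run of 24 bases. The authors counted only uniquely aligned reads, so reads that match both members of a pair would have been left out.

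The promoter windows of the 3 genes are shown because *Reg3b* and *Reg3g* varied together in the libraries. Each holds 250 bases before and 50 after the RefSeq start (GRCm38.p6), which for *Reg3b* and *Reg1* lies inside the longer GENCODE span, and capitals mark the STAT palindrome TTCNNNGAA, which reads alike on both strands, and the TATA box TATAAA on the gene's own strand.
Reg3b promoter, chr6:78370635-78370934, plus strand: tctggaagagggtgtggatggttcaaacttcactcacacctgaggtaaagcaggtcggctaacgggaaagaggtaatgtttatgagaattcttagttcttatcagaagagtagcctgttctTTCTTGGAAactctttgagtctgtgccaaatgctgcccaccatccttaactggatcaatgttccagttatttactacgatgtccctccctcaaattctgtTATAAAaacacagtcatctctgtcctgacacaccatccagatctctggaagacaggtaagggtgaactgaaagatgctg
Reg3g promoter, chr6:78468825-78469124, minus strand: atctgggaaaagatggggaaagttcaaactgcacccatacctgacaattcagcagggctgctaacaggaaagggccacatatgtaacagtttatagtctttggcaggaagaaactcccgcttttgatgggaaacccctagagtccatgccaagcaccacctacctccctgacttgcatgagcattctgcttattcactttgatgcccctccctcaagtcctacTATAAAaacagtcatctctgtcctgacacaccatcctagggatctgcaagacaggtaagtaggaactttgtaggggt
Reg1 promoter, chr6:78425733-78426032, plus strand: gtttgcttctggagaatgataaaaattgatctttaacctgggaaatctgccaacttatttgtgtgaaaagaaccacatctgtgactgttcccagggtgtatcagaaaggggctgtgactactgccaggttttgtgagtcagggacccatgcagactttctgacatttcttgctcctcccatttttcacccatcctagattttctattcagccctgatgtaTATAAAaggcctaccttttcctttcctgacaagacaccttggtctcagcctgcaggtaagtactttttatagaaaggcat
The STAT palindrome was in the *Reg3b* window, starting 129 bases before the start site, and not in the *Reg3g* or *Reg1* window. The palindrome was also in the window of *Reg3d*, which is not shown. It was in 8.33% of 32544 mouse promoter windows of the same length. A TATAAA match began 29 bases before the start of *Reg3b*, 27 before that of *Reg3g* and 30 before that of *Reg1*, and 13.6% of all windows held TATAAA or its complement TTTATA. The windows of *Reg3b* and *Reg3g* were identical at 69.9% of aligned bases, 207 bases in all, with a longest shared run of 29 bases. For *Reg3a* and *Reg3g* it was 73.9%, 184 bases, with a longest run of 14. For *Reg3b* and *Reg3a* it was 68.3%, 168 bases, with a longest run of 10. The percentage alone is thus not particular to *Reg3b* and *Reg3g*. The nuclear receptor motif AGGTCA or its complement TGACCT was in none of the 3 windows and in 16.2% of all windows. These are letter matches, and binding was not measured.

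Values are log2 TPM, a measure of transcript abundance per unit of gene length, after the authors' batch correction with ComBat. All intestinal libraries formed 1 batch and all liver libraries the other, so the batch cannot be told apart from the tissue, and the correction set each gene to a similar mean in both. Albumin (*Alb*), which hepatocytes make in bulk, was listed at a mean of 9.48 in sham liver and 9.35 in sham ileum, so markers cannot check the liver label in this table. The correction can also stretch or shrink a gene's spread, so a difference of 1 on this scale need not be an exact doubling of TPM. Median log2 TPM over all genes lay between 2.13 and 3.09 in the duodenum, between 3.18 and 3.82 in the ileum and between 3.05 and 3.77 in the liver. The number of reads behind a value is unknown. *Abca1*, an LXR target and cholesterol exporter, was at 5.46 to 7.43 in the treated and 2.56 to 4.12 in the SBR vehicle duodenum, at 6.55 to 7.97 and 4.07 to 4.90 in the ileum, and at 5.76 to 6.26 and 5.36 to 6.33 in the liver.

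Along the intestine of sham mice, *Reg1* was far higher in the duodenum, and *Reg3b* and *Reg3g* were listed higher in the ileum. *Reg1* was at 7.04, 7.43 and 6.84 log2 TPM in the 3 duodenal libraries and at 0.55, 0.93 and 1.10 in the 3 ileal libraries. The difference was 6.25 log2 units (SE 0.38, limma adjusted p = 1.32e-10), against a median of -0.52 over all 15923 genes tested, of which 14.6% were called. *Reg1* passed the minimum level for this fit through its duodenal values, which selects for a difference, and the p is no further support; with no minimum level it was the same to 2 digits. *Reg3g* was at 4.74, 4.93 and 4.81 in the duodenum and at 5.99, 6.17 and 6.60 in the ileum. Its duodenal level was lower by 1.42 (log2 difference -1.42, SE 0.37, limma adjusted p = 0.0122). That call was lost when each library was centred on its own median (-0.97, limma adjusted p = 0.110), after quantile normalization (-1.16, limma adjusted p = 0.0560), in a fit of the compared groups alone (limma adjusted p = 0.0540) and without ileal sham library 3 (-1.25, limma adjusted p = 0.0595). *Reg3b* was at 5.84, 6.31 and 6.03 in the duodenum and at 6.54, 6.82 and 7.21 in the ileum, a log2 difference of -0.79 (SE 0.38) that did not pass the test (limma adjusted p = 0.156) and was -0.34 with library medians centred. Each of the 3 genes had sham groups that did not overlap. For genes lower in the duodenum the same was true of 30.8% of genes, and for genes higher there of 7.13%. The exact two-sided permutation p was 0.1 for each, the smallest that 3 libraries against 3 allow.

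**Figure D1:**
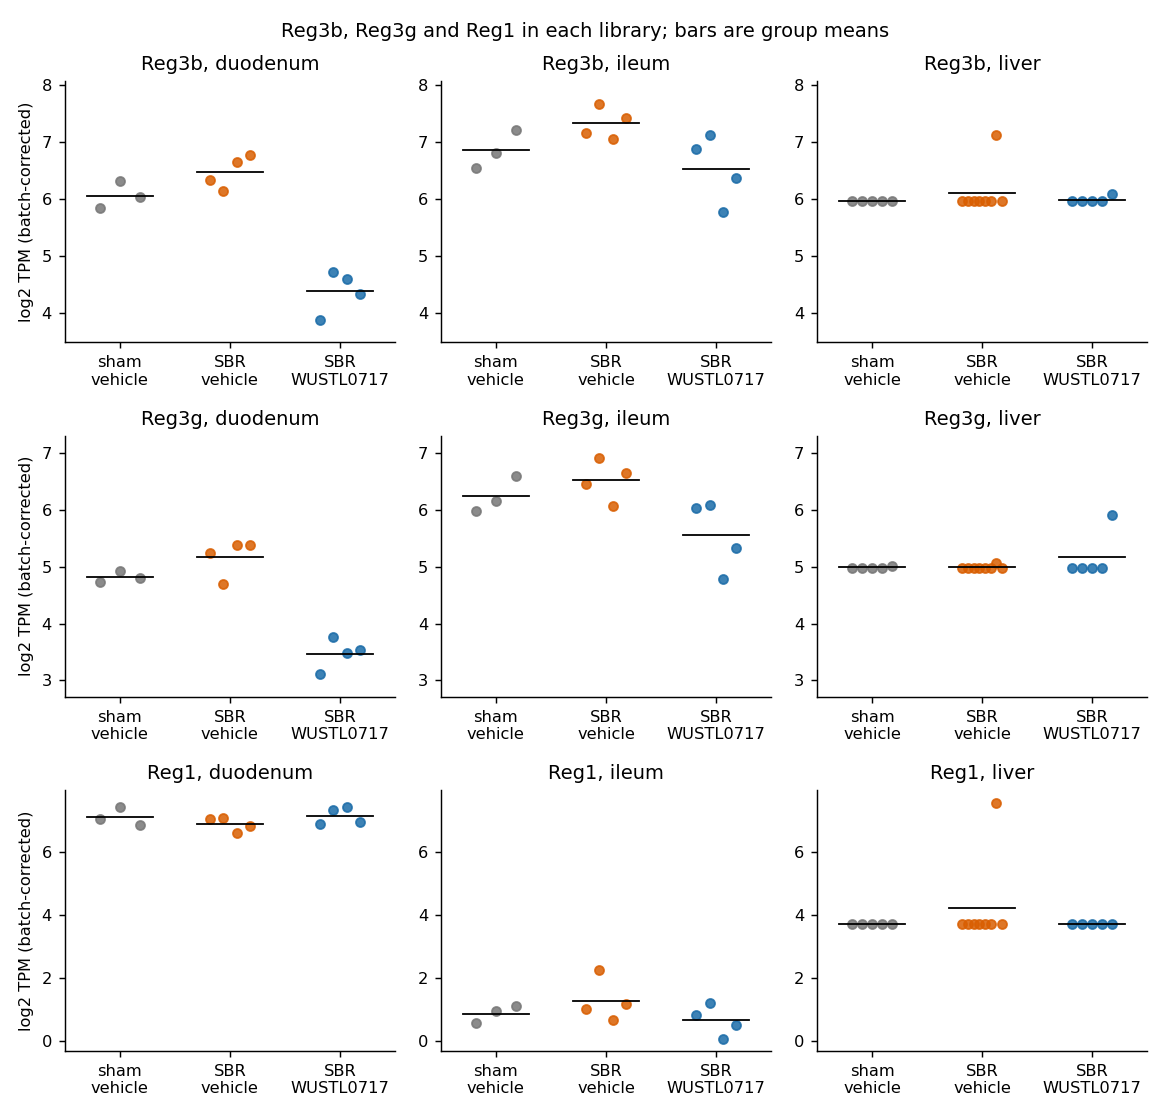
Log2 TPM (batch-corrected) of Reg3b, Reg3g and Reg1, 1 row of panels a gene, in each duodenal, ileal and liver library of the sham vehicle, SBR vehicle and SBR WUSTL0717 groups; each point is a library and each bar a group mean. Treated duodenal libraries of Reg3b (3.89 to 4.73) and Reg3g (3.11 to 3.77) sit below all other intestinal libraries of the same gene, Reg1 is high in all duodenal and low in all ileal libraries, and liver values stand at a shared value in most libraries.

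The other antimicrobial genes of a list drawn up around these lectins were mostly ileal, as were the Paneth cell markers. Over all genes tested, 10.8% were called lower and 3.83% higher in sham duodenum, with a median difference of -0.52. Of the 45 other antimicrobial genes, 9 were over the minimum level in the ileum alone. Of the 36 over it in both regions, 27 were lower and 3 higher in sham duodenum, with a median difference of -3.66. All 7 Paneth cell markers, 6 of which are also in the antimicrobial list, were lower, with *Lyz1* (lysozyme) at -3.20 (SE 0.40, limma adjusted p = 9.51e-06). Of 10 other epithelial genes known to respond to IL-22 or STAT3 that were over the minimum in both regions, 5 were lower and 0 higher (median -1.65). *Saa1* (serum amyloid A) was lower by 5.02 (log2 difference -5.02, SE 0.55, limma adjusted p = 1.37e-06), and *Nos2* (inducible nitric oxide synthase) and *Duox2* (an epithelial oxidase) differed by -4.86 (limma adjusted p = 3.42e-06) and -2.90 (limma adjusted p = 4.92e-05). Of 18 receptor and signalling genes over the minimum in both regions, 4 were lower and 1 higher (median -1.17). *Il17rc*, a receptor chain for IL-17, was at -2.36 (limma adjusted p = 0.00399). Within the Reg family, *Reg4* was higher in the duodenum by 1.59 (SE 0.43, limma adjusted p = 0.0156). *Reg2* was listed higher there by 4.08 (SE 0.98), but it passed the minimum level through the duodenum alone, and its duodenal level followed that of pancreatic acinar genes (r = 0.95, n = 11 libraries), whose part in the difference was not tested. *Reg3a* (-0.94) and *Reg3d* (0.16) did not pass the test.

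In the duodenum of resected mice, *Reg3b* was at 6.34, 6.15, 6.65 and 6.77 log2 TPM with vehicle and at 3.89, 4.73, 4.60 and 4.34 with WUSTL0717. Every treated library lay below every vehicle library, as it did for 1.05% of the 15093 duodenal genes tested. The difference of the means was -2.09 (SE 0.35). *Reg3g* was at 5.24, 4.70, 5.39 and 5.39 with vehicle and at 3.11, 3.77, 3.48 and 3.53 with WUSTL0717, a difference of -1.71 (SE 0.32), again without overlap. *Reg1* was at 7.03, 7.07, 6.60 and 6.81 with vehicle and at 6.87, 7.32, 7.42 and 6.94 with WUSTL0717, a difference of 0.26 (SE 0.34) between groups that overlapped. Under quantile normalization the *Reg1* difference was -0.061. Because this contrast chose *Reg3b* and *Reg3g*, their values are a description, and the called share of 0.258% of all genes is given only as its background.

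The treated duodenum lay below sham as well, not only below SBR vehicle. This comparison shares its treated libraries with the drug comparison that chose *Reg3b* and *Reg3g*. Low treated values are therefore favoured by the choice, and the values and the order below are a description. For *Reg3b* the highest treated library (4.73) was below the lowest sham library (5.84), and for *Reg3g* the values were 3.77 and 4.74. The treated group was entirely below sham for 12.8% of duodenal genes. Paneth cell markers were also lower than in sham, at a summed TPM of 525 to 887 in sham and 155 to 419 in the treated duodenum. They were at 156 to 222 with SBR vehicle, where the means of *Reg3b* (6.48) and *Reg3g* (5.18) were above those of sham (6.06 and 4.83). All 7 of these markers were listed lower in SBR vehicle than in sham duodenum (median -1.71, 0 called by limma, 7 at an unadjusted p under 0.05). Over all duodenal genes, 2426 of 15093 had an unadjusted limma p under 0.05 in that comparison. The part of Paneth cells in the comparison of the treated duodenum with sham was not tested. Ordered by mean, the 6 intestinal groups of *Reg3b* ran from treated duodenum (4.39 ± 0.37, SD, n = 4) over sham duodenum (6.06 ± 0.24, SD, n = 3), SBR vehicle duodenum (6.48 ± 0.28, SD, n = 4), treated ileum (6.54 ± 0.60, SD, n = 4) and sham ileum (6.86 ± 0.33, SD, n = 3) to SBR vehicle ileum (7.33 ± 0.27, SD, n = 4). *Reg3g* kept that order, from 3.47 ± 0.27 (SD, n = 4) in the treated duodenum to 6.53 ± 0.36 (SD, n = 4) in the SBR vehicle ileum. In both genes the treated duodenum was separated from its neighbour in the order, and all other neighbours overlapped. *Reg1* had another order, with all 3 ileal groups (means 0.64 to 1.27) below all 3 duodenal groups (means 6.88 to 7.14) and overlap within each region.

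Resection alone went with small differences in the duodenum. SBR vehicle minus sham was 0.41 (SE 0.37) for *Reg3b*, 0.35 (SE 0.35) for *Reg3g* and -0.23 (SE 0.37) for *Reg1*, and all 3 pairs of groups overlapped. The median over all duodenal genes in this comparison was -0.36. With each library centred on its own median the same differences were 0.82, 0.76 and 0.18, so the sign for *Reg1* rests on the scaling. This comparison shares its SBR vehicle libraries with the drug comparison. *Reg4*, made by goblet and enteroendocrine cells, was lower in every SBR vehicle than in every sham library (a log2 difference of -0.85), which held for 6.24% of genes, and did not pass the test (limma adjusted p = 0.281).

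In the ileum, *Reg3b* and *Reg3g* were listed lower in most treated libraries, and neither passed the test over all genes. *Reg3b* was at 7.16, 7.67, 7.06 and 7.42 with vehicle and at 6.89, 7.13, 5.77 and 6.36 with WUSTL0717. The difference was -0.79 (SE 0.32, limma adjusted p = 0.674, unadjusted p = 0.0311), and 3 of 4 treated libraries were below every vehicle library. *Reg3g* was at 6.46, 6.92, 6.07 and 6.66 with vehicle and at 6.03, 6.10, 4.79 and 5.33 with WUSTL0717. Here the difference was -0.96 (SE 0.33, limma adjusted p = 0.582, unadjusted p = 0.0133), with the same 3 of 4 libraries below. The exact two-sided permutation p was 0.0571 for either gene, where 4 libraries against 4 can reach 0.0286. Of all 15772 ileal genes, 0.0697% were called, and in 1.27% every treated library was below every vehicle library. *Reg1* was low throughout, at 1.00, 2.25, 0.65 and 1.17 with vehicle and at 0.82, 1.20, 0.059 and 0.49 with WUSTL0717. Its ileal mean was under the minimum of 1 for the limma fit, so only the exact two-sided permutation test was run (difference -0.62, p = 0.229). Whether the drug difference itself differs between duodenum and ileum was not tested, because the duodenal contrast chose the genes.

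SBR vehicle minus sham in the ileum was 0.47 for *Reg3b* (SE 0.35, limma adjusted p = 0.861) and 0.28 for *Reg3g* (SE 0.36, limma adjusted p = 0.967). Sham ileal values were 6.54 to 7.21 for *Reg3b* and 5.99 to 6.60 for *Reg3g*, and they overlapped with the SBR vehicle values. Of all ileal genes, 0.349% were called. For *Reg1* the difference was 0.41 (exact two-sided permutation p = 0.343, where 4 libraries against 3 can reach 0.0571). Neither of the 2 genes fitted by limma reached an unadjusted p under 0.05 in this comparison.

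**Figure D2:**
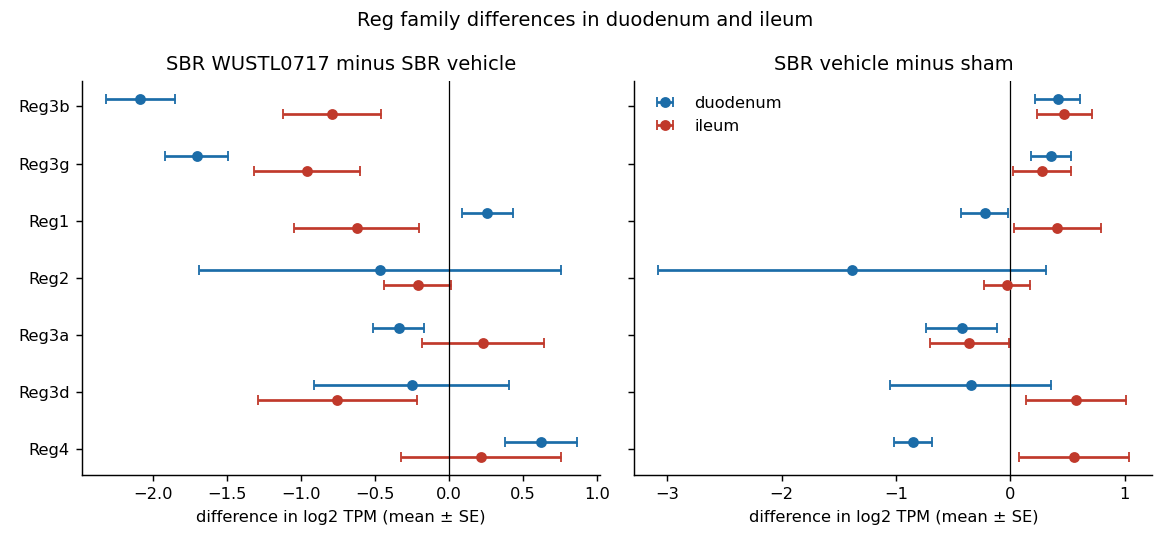
Difference in log2 TPM (x axis, mean ± SE from the variances of the 2 groups) of the 7 Reg family genes (y axis) for SBR WUSTL0717 minus SBR vehicle and for SBR vehicle minus sham, in duodenum (blue) and ileum (red). Reg3b (-2.09) and Reg3g (-1.71), which were chosen from this contrast, stand to the left of the other family members in the treated duodenum, and Reg2 has the widest error there.

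The other members of the family were listed closer to 0 in the treated duodenum. *Reg3b* and *Reg3g* were chosen for their low values in this contrast, so that order follows in part from the choice. *Reg3a*, another lectin of the cluster, differed by -0.34 and *Reg3d* by -0.25 between treated and vehicle duodenum, *Reg2* by -0.47 and *Reg4* by 0.62. All 4 had groups that overlapped, and limma called 0 of the 4, with 0 at an unadjusted p under 0.05. Within groups, *Reg2* and *Reg3d* followed pancreatic acinar genes in the duodenum (r = 0.95 and 0.90, n = 11 libraries). These acinar genes were listed higher under WUSTL0717 than with SBR vehicle (median 2.00, 0 called). The differences of *Reg2* and *Reg3d* are therefore not differences at like acinar RNA, whose part in them was not tested. In the ileum, *Reg3d* differed by -0.76 (SE 0.44, limma adjusted p = 0.837), *Reg3a* by 0.23 and *Reg4* by 0.22, and 0 of the 3 tested were called. *Reg2* was at the low end of the scale there, with group means between -0.33 and -0.083.

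Genes upstream of and beside *Reg3b* and *Reg3g* were read from lists of known members. Over all genes tested, 802 of 15093 in the duodenum and 1083 of 15772 in the ileum had an unadjusted limma p under 0.05 under WUSTL0717. These are the background for the counts of these lists and of the cell marker lists below. Of 11 cytokine ligands listed, 3 are in the table, with *Il33*, an epithelial alarmin, at -0.39 in the treated duodenum (limma adjusted p = 1) and -0.37 in the treated ileum (limma adjusted p = 0.890). Of 18 receptor and signalling genes tested in the duodenum, 12 were listed lower and 6 higher under WUSTL0717, limma called 0 and 1 had an unadjusted p under 0.05; the median was -0.17, beside 0.041 over all genes. That gene was *Socs3*, the feedback inhibitor that STAT3 switches on, at 4.86, 4.35, 5.92 and 6.61 with vehicle and 3.62, 2.75, 3.30 and 4.54 with WUSTL0717. The highest treated library was above the lowest vehicle library, and the difference of -1.88 (SE 0.55) did not pass the test (limma adjusted p = 0.372). In the ileum, *Socs3* was at 6.50, 5.82, 4.25 and 7.38 with vehicle and 3.98, 3.75, 3.81 and 4.08 with WUSTL0717. Its ileal groups did not overlap, as for 1.27% of ileal genes, and its difference of -2.08 (SE 0.58) did not pass the test (limma adjusted p = 0.455).

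Of 11 other epithelial genes known to respond to IL-22 or STAT3 tested in the duodenum, 7 were listed lower and 4 higher under WUSTL0717, with a median of -0.34, 0 called and 2 at an unadjusted p under 0.05. *Tifa*, an adaptor in sensing of bacterial sugars, had the smallest p, at 3.03, 2.49, 3.13 and 3.92 with vehicle and 1.80, 1.38, 1.47 and 2.57 with WUSTL0717 (difference -1.34, SE 0.38, limma adjusted p = 0.334). *Lcn2* (lipocalin 2, an iron-withholding protein), named after its values were seen, had the lowest difference of the list, -2.02 (SE 1.01, limma adjusted p = 0.993), about the size of that of *Reg3b*, at 2.92, 2.30, 6.05 and 3.25 with vehicle and 2.85, 1.97, 0.80 and 0.82 with WUSTL0717. In the ileum, 10 of 12 such genes were listed lower, with a median of -0.79 beside 0.0031 over all genes, 0 called and 5 at an unadjusted p under 0.05. *Duoxa2*, the maturation factor of DUOX2, had the smallest p there, at 4.51, 4.17, 3.88 and 3.62 with vehicle and 3.22, 1.84, 2.57 and 3.18 with WUSTL0717. Its groups did not overlap, as for 1.27% of ileal genes, and its difference was -1.34 (SE 0.33, limma adjusted p = 0.417). Among 19 ileal receptor and signalling genes the median was 0.029, 0 were called and 5 had an unadjusted p under 0.05, led by *Nfkbiz*, a nuclear co-activator of NF-kB targets, at -1.10 (SE 0.28, limma adjusted p = 0.422).

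Other antimicrobial genes differed between regions in how they were listed under WUSTL0717, a contrast that was not tested. In the duodenum, 21 of 36 were listed higher and 15 lower, with a median of 0.13, 0 called and 1 at an unadjusted p under 0.05. In the ileum, 39 of 45 were listed lower and 6 higher, with a median of -0.80, 0 called and 18 at an unadjusted p under 0.05. Over all ileal genes tested, 1083 of 15772 had an unadjusted limma p under 0.05. *Pla2g2a*, a phospholipase that lyses bacteria, had the smallest p there, at -1.26 (SE 0.40, limma adjusted p = 0.548). Many of these genes are alpha-defensins, near-identical copies of each other, so the genes counted here are not independent.

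**Figure D3:**
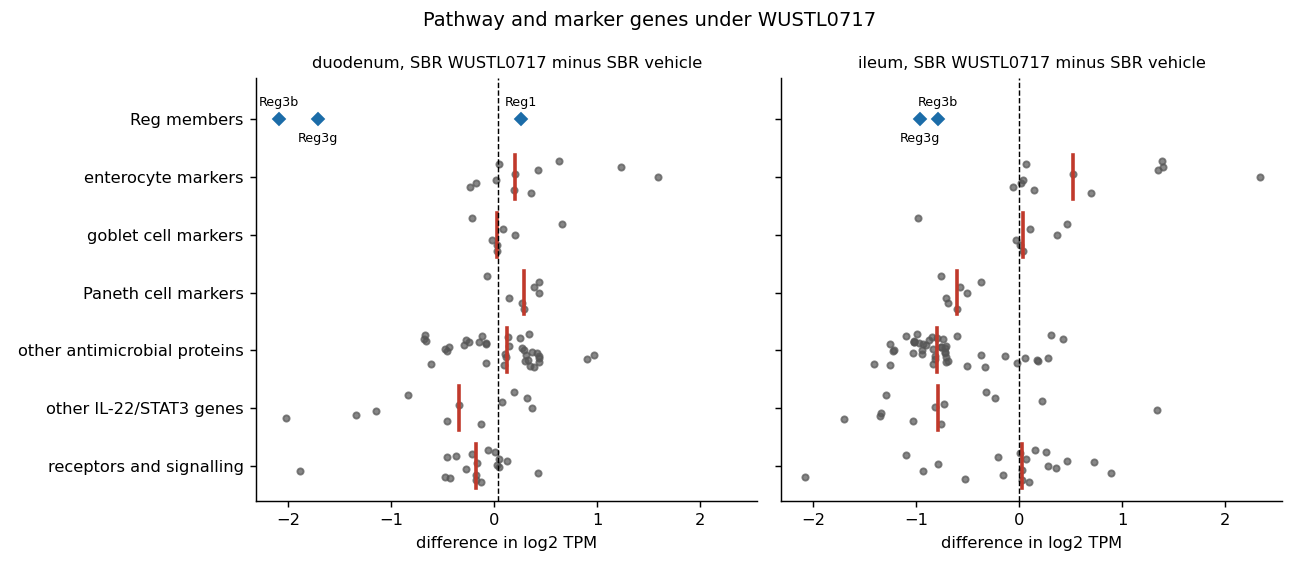
Difference in log2 TPM (x axis) between SBR WUSTL0717 and SBR vehicle for the genes of each list (y axis) in duodenum and ileum; grey points are genes, red bars list medians, blue diamonds the Reg members in the fit, and the dashed line the median of all tested genes. In the duodenum Reg3b and Reg3g, which were chosen from this contrast, lie below the medians of all 6 lists (-0.34 to 0.29). Single genes, Lcn2 (-2.02) and Socs3 (-1.88), are as low there as Reg3b and Reg3g. In the ileum the medians of the IL-22/STAT3 (-0.79) and antimicrobial (-0.80) lists lie close to Reg3b and Reg3g.

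In bulk tissue, fewer cells of a type and less RNA per cell cannot be told apart, so the marker lists of the cells that make these lectins are given beside the values. In the duodenum, 6 of 7 Paneth cell markers were listed higher under WUSTL0717 (median 0.29, 0 called, 0 at an unadjusted p under 0.05), and their summed TPM was 156 to 222 with vehicle and 155 to 419 with WUSTL0717. For 11 enterocyte markers, 9 were listed higher (median 0.21, 0 called, 2 at an unadjusted p under 0.05), and for 7 goblet cell markers 5 were (median 0.025, 0 called, 0 at an unadjusted p under 0.05). In the ileum, all 7 Paneth cell markers, 6 of them also among the antimicrobial genes, were listed lower (median -0.61, 0 called, 1 at an unadjusted p under 0.05), with summed TPM of 4835 to 8885 with vehicle and 2093 to 5888 with WUSTL0717, and 10 of 11 enterocyte markers higher (median 0.52, 0 called, 4 at an unadjusted p under 0.05). The part of cell makeup in the Reg values was not tested. Of 6 markers of type 3 innate lymphoid and T17 cells, sources of IL-22, 2 are in the table, and of 7 neutrophil markers 2.

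Library by library, *Reg3b* and *Reg3g* moved together. After the mean of its region and group was taken from each value, *Reg3g* followed *Reg3b* with a Pearson r of 0.87 (Spearman rho 0.86) over 11 duodenal libraries and 0.98 (rho 0.97) over 11 ileal libraries. Without the 2 libraries farthest from the median of *Reg3b*, r was 0.78 and 0.97. *Reg1* followed *Reg3b* in the ileum (r = 0.84, rho 0.89), where its values are low, and much less in the duodenum (r = 0.33, rho 0.29, and 0.046 without the 2 farthest libraries). These correlations are descriptions over points that share libraries and their scaling.

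**Figure D4:**
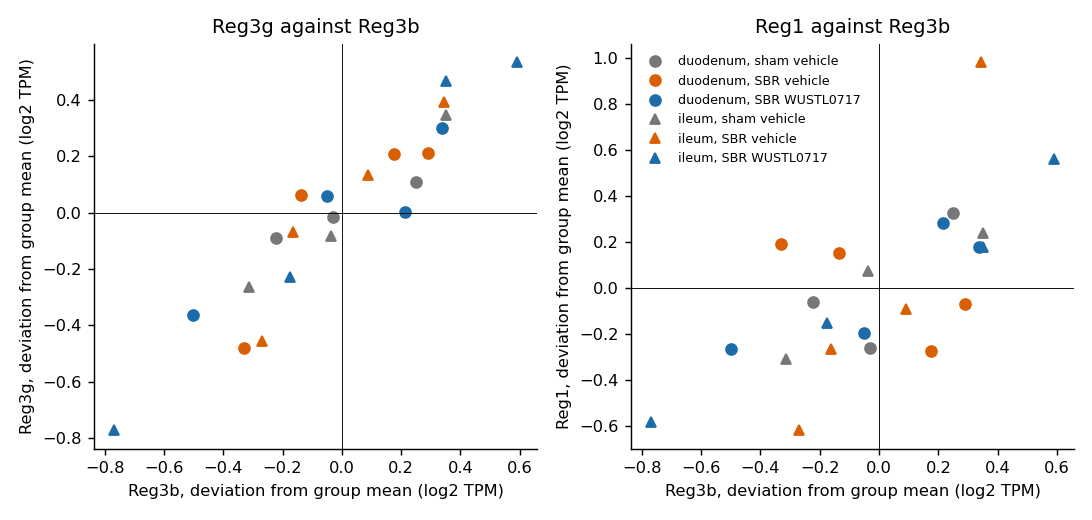
Deviation from the mean of its region and group, in log2 TPM, of Reg3g (left) and Reg1 (right) against that of Reg3b on the x axis, for 22 intestinal libraries; circles are duodenum, triangles ileum and colours the groups. Reg3g lies along a line with Reg3b in both regions (r = 0.87 and 0.98), and Reg1 does so in the ileum (r = 0.84) more than in the duodenum (r = 0.33).

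Ranked by the same measure over all 22 intestinal libraries, *Reg3g* was the gene most like *Reg3b* among 11786 named genes (r = 0.94), followed by *Slc40a1* (the iron exporter ferroportin, r = 0.74), *Lipa* (lysosomal acid lipase, r = 0.74), *Chst13* (r = 0.70) and *Ociad2* (r = 0.69). The genes most like *Reg3g* after *Reg3b* were *Ceacam1* and *Ceacam2* (adhesion molecules of the epithelium, r = 0.79 and 0.76), *M6pr-ps* (r = 0.76) and *Slc40a1* (r = 0.76). *Ceacam1* and *Ceacam2* are close paralogs. Those most like *Reg1* were *Reg3b* (r = 0.70), *Flrt3* (r = 0.69), *Gabbr2* (r = 0.68, rho 0.26), *Il18* (r = 0.68) and *Reg3g* (r = 0.68).

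Because pancreas lies against the duodenum and makes *Reg1*, pancreatic acinar genes were read in every library. The trypsinogen gene *Prss2* was at 7.71, 6.54 and 3.60 in sham duodenum, at 1.78, 7.27, 4.02 and 4.26 in SBR vehicle and at 6.79, 6.42, 4.78 and 8.02 in SBR WUSTL0717 duodenum. The chymotrypsinogen gene *Ctrb1* was at 9.04, 7.78 and 5.28, at 3.16, 8.47, 5.30 and 5.74, and at 8.22, 7.47, 6.06 and 9.31 in the same libraries. *Prss2* and *Ctrb1* were thus above their ileal values in every duodenal library. Both were lowest in SBR vehicle library 1 and highest in SBR WUSTL0717 library 4, and all 3 groups overlapped. The 20 acinar genes in the table, of 31 listed, summed to 163 to 2493 TPM in sham, 48.2 to 1763 in SBR vehicle and 322 to 3016 in SBR WUSTL0717 duodenum. Under WUSTL0717, 19 of the 20 were listed higher than with SBR vehicle (median 2.00, 0 called by limma, 1 at an unadjusted p under 0.05). In the ileum the sum was 16.6 to 42.1 TPM, with *Prss2* between -1.09 and -0.93 and *Ctrb1* between -1.34 and -1.05 in all 11 libraries.

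In the duodenum *Reg1* stayed nearly level while the acinar genes and *Reg2* varied widely. Across the 11 duodenal libraries *Reg1* spanned 0.82 log2 units, whereas *Reg2* spanned 6.06, *Prss2* 6.24 and *Ctrb1* 6.15. In SBR vehicle library 1, with *Prss2* at 1.78, *Reg1* was at 7.03, and in SBR WUSTL0717 library 4, with *Prss2* at 8.02, it was at 6.94. *Reg2* was at 0.10 and 3.79 in these libraries, and in sham library 1 (*Prss2* at 7.71) it reached 6.16. After subtraction of the group means, the mean of the acinar genes had an r of 0.015 with *Reg1* (rho 0.23, and -0.44 without the 2 farthest libraries), 0.95 with *Reg2* (rho 0.91) and 0.90 with *Reg3d* (rho 0.85) over 11 libraries. For *Reg3b* and *Reg3g* the r was -0.39 and -0.47 (-0.30 and -0.24 without the 2 farthest libraries). *Reg3b* in the SBR vehicle library with most acinar RNA (library 2, 1763 TPM) was 6.15, and in the SBR WUSTL0717 library with least (library 3, 322 TPM) it was 4.60. The groups of the contrast that chose *Reg3b* did not overlap, so any such pair of libraries would stand in this order. The part of acinar RNA in the *Reg3b* and *Reg3g* differences was not tested.

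**Figure D5:**
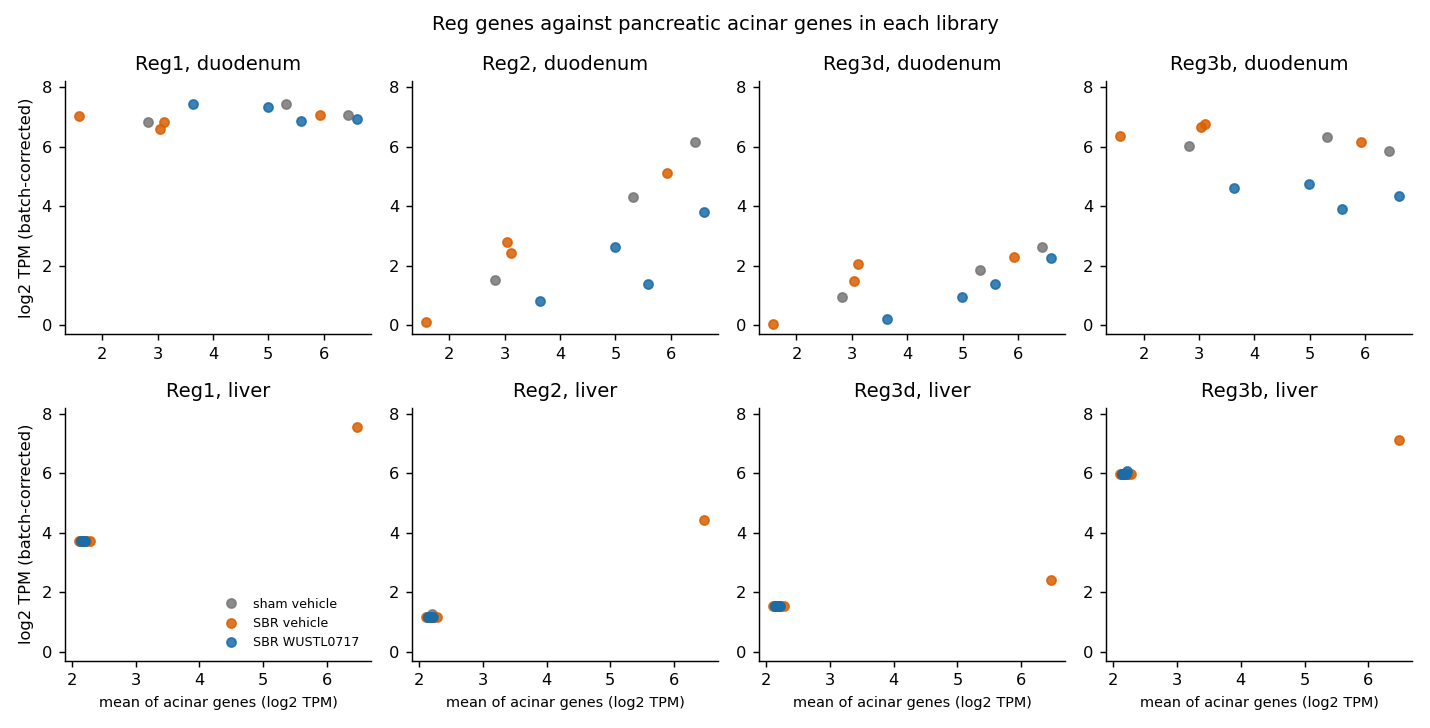
Log2 TPM (batch-corrected, y axis) of Reg1, Reg2, Reg3d and Reg3b against the mean log2 TPM of 20 pancreatic acinar genes (x axis) in each duodenal library (top) and liver library (bottom), coloured by group. In the duodenum Reg1 stays within 0.82 log2 units while Reg2 and Reg3d climb with the acinar genes, and in the liver 1 SBR vehicle library stands apart in both measures.

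In the liver, the 3 genes were listed at a shared value in nearly all libraries. *Reg3b* was at 5.96 in 16 of 18 libraries, *Reg3g* at 4.99 in 15 and *Reg1* at 3.72 in 17. Such shared values are not levels: *Sis*, an intestinal disaccharidase, was at 4.74 in 17 liver libraries. SBR vehicle library 7 stood apart, with *Reg1* at 7.56, *Reg3b* at 7.13 and *Reg3g* at 5.07, and with *Reg2* at 4.43, *Reg3a* at 3.86 and *Reg3d* at 2.41. In that library *Prss2* was at 8.73 and *Ctrb1* at 11.18, and the acinar genes summed to 4587, beside 76.3 to 97.6 in the other 17 liver libraries, where the sums are made largely of such shared values and are not amounts. In SBR vehicle library 7, 24 genes were over 2 log2 units above a value shared by at least 9 liver libraries. Of these, 13 were acinar genes of the list and 2 were *Reg1* and *Reg2*. The minimum of 9 equals the number of liver libraries with *Ctrb1* at its shared value. Other libraries were not counted in this way, so the counts are a description. SBR WUSTL0717 library 5 also had *Reg3g* (5.91) and *Reg3b* (6.09) above the shared values, with *Reg1* at the shared value, *Prss2* at 2.12 and *Ctrb1* at 3.05. Sham library 5 held *Reg3g* at 5.02. *Reg4* was above its shared value of 2.40 in 7 of 18 liver libraries, reaching 3.17.

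The liver comparisons rest on those libraries. WUSTL0717 minus SBR vehicle was -0.12 for *Reg3b* (limma adjusted p = 0.783), 0.18 for *Reg3g* (limma adjusted p = 0.522) and -0.48 for *Reg1* (limma adjusted p = 0.699), where 4.1% of 15901 genes were called. SBR vehicle minus sham was 0.15 (limma adjusted p = 0.464), 0.0028 (limma adjusted p = 0.989) and 0.48 (limma adjusted p = 0.436), where 41.9% were called and the median over all genes was 0.25. With each library centred on its own median, *Reg3b* was at -0.16 and *Reg3g* at -0.30 for resection. None of these 6 tests had an unadjusted p under 0.05, and the exact two-sided permutation p was 1 in each but *Reg3g* under WUSTL0717 (0.769). Without SBR vehicle library 7, *Reg3b* was at 0.025 for the drug and 0 for resection. Without it all other liver libraries held *Reg1* at the shared value, so both of its differences were 0. Without SBR WUSTL0717 library 5, *Reg3g* was at -0.010 for the drug.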

How the data were processed

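The authors removed ribosomal RNA, sequenced paired ends, aligned reads to GRCm38 with STAR, counted uniquely aligned reads on genes with featureCounts, scaled the counts with edgeR factors and to TPM, and deposited 1 table of log2 TPM for 15958 genes in 40 libraries after ComBat. Labels give the batches as intestine and liver. Depth is unknown, so its precision cannot be given, and 0 pairs of libraries were identical. Groups came from the sample titles. The members and gene lists were chosen with earlier results of these data known. Replicates are separate samples by their labels, and p-values measure the spread between them.

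The limma fit (version 3.58.1, R 4.3.3) took genes whose log2 TPM averaged 1 or more over the libraries fitted, all 3 groups of a tissue together (the 6 intestinal groups for sham duodenum against sham ileum) and a variance trend. Calls are at a Benjamini-Hochberg adjusted p under 0.05. The fit was tested on simulated data. Members were also compared with exact two-sided permutation tests in scipy 1.17.1 (Python 3.11.15). Named genes were the Reg family, *Prss2*, *Ctrb1*, *Abca1*, up to 3 called genes of each list by smallest p, or otherwise the gene with the smallest p, and the 5 genes most like each member. *Sis*, *Alb* and the libraries that stood apart were chosen after their values were seen. Sums over lists used values turned back into TPM as log2(TPM + 1), which is assumed, since the pseudocount is not given in the sources used here, and batch correction had shifted each gene. Promoter windows are from RefSeq (GRCm38.p6) and gene positions from GENCODE M21. Alternatives were no filter and a minimum of 3, pseudocounts of 5 and 0.1, median centring, quantile normalization, other estimates of the spread, library weights, the compared groups alone, a replicate block and leaving out each library.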

Additional observations from a re-analysis of the deposited data

Results flagged for a closer look

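Dixon's test for a lone extreme value was applied to 18 sets of libraries of 1 group (groups of 4 to 10) and picked out 6, all in the liver, where chance picks about 1 set in 20. The share is not informative here, because most liver libraries stand at 1 shared value, so any library off it takes up the whole range. In SBR vehicle library 7 the values were 7.13 for *Reg3b*, 5.07 for *Reg3g* and 7.56 for *Reg1*, beside acinar genes at a sum of 4587. In SBR WUSTL0717 library 5 they were 6.09 for *Reg3b* and 5.91 for *Reg3g*, with acinar genes at a sum of 85.4, inside the range of the other livers. In sham library 5, *Reg3g* was at 5.02. The cause was not tested.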

How the results depend on the processing

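The duodenal drug differences kept their direction for *Reg3b* (-2.20 to -1.92) and *Reg3g* (-1.87 to -1.59) when any 1 library was left out, and stayed between -2.17 and -1.90 and between -1.79 and -1.41 under the 11 other alternatives. *Reg1* lay between 0.17 and 0.35 with 1 library left out and was -0.061 after quantile normalization. For resection in the duodenum, values with 1 library left out ran from 0.30 to 0.54 (*Reg3b*), 0.28 to 0.51 (*Reg3g*) and -0.36 to -0.064 (*Reg1*), and median centring gave 0.82, 0.76 and 0.18. In the ileum, the drug difference lay between -0.99 and -0.53 for *Reg3b* and between -1.14 and -0.71 for *Reg3g* with 1 library left out, and the resection difference between 0.32 and 0.65 and between 0.14 and 0.45, none of them past the threshold. *Reg1* in the ileum had a limma value only without a filter (adjusted p = 0.819 for the drug and 0.919 for resection), and its differences of means ran from -0.83 to -0.30 and from 0.082 to 0.62 with 1 library left out, nearest 0 without SBR vehicle library 2.

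In sham mice, *Reg1* stayed past the threshold under all alternatives run (4.60 to 7.27, and 6.08 to 6.38 with 1 library left out), and *Reg3b* past it under none (-0.95 to -0.62 with 1 library left out, -0.80 to -0.34 under the others, the last with median centring). Because *Reg1* passed the minimum level through its duodenal values, its calls here are no further support. *Reg3g* lay between -1.55 and -1.25 with 1 library left out, and lost the call without ileal sham library 3 (-1.25, limma adjusted p = 0.0595), under median centring (-0.97), quantile normalization (-1.16) and a fit of the compared groups alone (-1.42, limma adjusted p = 0.0540). In the liver, the sign of *Reg3b* turned for resection under median centring (-0.16) and quantile normalization (-0.073), and that of *Reg3g* under the same (-0.30 and -0.23). With 1 library left out, liver drug differences ran from -0.15 to 0.025 (*Reg3b*), -0.010 to 0.22 (*Reg3g*) and -0.55 to 0 (*Reg1*), and resection differences from 0 to 0.17, -0.0076 to 0.010 and 0 to 0.55. The 0 of *Reg1* is the value without SBR vehicle library 7, which could not be fitted because all values left were the same. The causes were not tested.

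Replicate numbers were not taken to pair the samples, and whether same-numbered libraries share a mouse is not known. Correlations of same-numbered deviations were between -0.047 and 0.31 for the duodenal drug comparison, -0.32 and -0.012 for the ileal one, and 0.070 and 0.45 between sham regions, and no comparison had every pair over 0.1. With a replicate block, *Reg3b* was at 0.025 for the drug and *Reg3g* at -0.0076 for resection in the liver, both turned in sign, as the block leaves out the SBR vehicle libraries without a partner, among them library 7. It changed no call of the 3 genes in the ileum, the liver or between sham regions; their duodenal differences have no test. Counts of genes called over the 11 other alternatives ran from 2 to 85 for the duodenal drug comparison (39 as reported), 1 to 18 for the ileal one (11), 5 to 279 for ileal resection (55), 0 to 3133 for the liver drug comparison (652), 4180 to 10462 for liver resection (6663) and 1070 to 5549 for sham regions (2331). For duodenal resection they ran from 0 to 2497 (0). With 1 library left out, the counts were 10 to 36, 2 to 14, 5 to 39, 99 to 1067, 5371 to 9005, 1260 to 1844 and 0 to 307 in the same order.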

Other observations

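*Ang4*, an angiogenin of Paneth cells, was listed lower in SBR vehicle than in sham duodenum (log2 difference -1.71, SE 0.30) and did not pass the test (limma adjusted p = 0.107), and *Il33* in the resected ileum differed by -1.48 (SE 0.29, limma adjusted p = 0.0631). *Apoa1*, an apolipoprotein of enterocytes, had the smallest p among enterocyte markers in the treated ileum (2.34, SE 0.64, limma adjusted p = 0.455).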
